A study of Mus musculus with 2 samples.

Results

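The genes described here put peptides on major histocompatibility complex (MHC) molecules, in mouse liver with and without the membrane protease gene Tmprss6. They are 10 of the 18193 genes that the array annotation names. A probe set (a group of short probes that reads 1 transcript) was taken when the annotation gave it to 1 of the 10 symbols alone, which left 21 probe sets. The class I genes are B2m, Tap1, Tap2, Tapbp, Psmb8 and Psmb9, with 12 probe sets, and the class II genes are H2-Aa, H2-Ab1, H2-Eb1 and Cd74, with 9. Liver RNA was measured in 1 male Tmprss6-/- mouse and in 1 male control mouse. Both were 3 months old, of strain 129Sv/C57BL6, and fasted overnight. The knockout was made by gene targeting, and the labels name the control animal by no genotype. The comparison asks what the loss of the protease goes with in liver RNA.

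MHC class I molecules show peptides from inside the cell to cytotoxic T cells. The immunoproteasome cuts proteins into peptides, the TAP pump carries these into the endoplasmic reticulum, tapasin holds the empty class I molecule at the pump, and beta-2 microglobulin is the light chain that class I heavy chains need. MHC class II molecules show peptides from material taken up by the cell to helper T cells. They are made mainly by professional antigen-presenting cells, which in liver include Kupffer cells, dendritic cells and B cells, while most cells, hepatocytes included, make class I.

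Promoters of MHC genes are known for shared boxes. The stretches just upstream of the start sites are shown for H2-Aa, H2-Eb1, B2m, Psmb9 and Tap1, which hold letters of such boxes. They are the sequences of RefSeq's reference mouse, build GRCm38.p6, not of these animals. Those of H2-Aa, H2-Eb1 and B2m are printed on the gene's own strand and end at the base before the start. The stretch of Psmb9 and Tap1 is printed on the strand of Tap1 and ends at the base before the Tap1 start. Capitals mark GATTGG (the core of the Y box bound by NF-Y), GCAAC (part of the X box bound by the RFX complex) and TGACG (part of a CREB-type site) on either strand. Tapbp and Psmb8, whose upstream bases were also searched, held none of these runs of letters and are not printed. The H2-Aa stretch is chr17:34287824-34287943, minus strand. The H2-Eb1 stretch is chr17:34305747-34305866, plus strand. The B2m stretch is chr2:122147567-122147686, plus strand. The last one, chr17:34187331-34187555 on the plus strand, is the whole interval of 225 bases between the start of Psmb9, which is read from the other strand, and the start of Tap1.
H2-Aa: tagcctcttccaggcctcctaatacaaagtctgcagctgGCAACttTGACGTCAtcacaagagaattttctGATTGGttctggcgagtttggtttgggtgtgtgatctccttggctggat
H2-Eb1: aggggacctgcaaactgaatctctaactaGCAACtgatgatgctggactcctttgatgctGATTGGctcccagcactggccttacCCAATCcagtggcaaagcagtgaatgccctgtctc
B2m: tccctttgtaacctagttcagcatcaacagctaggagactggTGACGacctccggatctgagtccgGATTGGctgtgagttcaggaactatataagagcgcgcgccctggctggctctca
Psmb9 to Tap1: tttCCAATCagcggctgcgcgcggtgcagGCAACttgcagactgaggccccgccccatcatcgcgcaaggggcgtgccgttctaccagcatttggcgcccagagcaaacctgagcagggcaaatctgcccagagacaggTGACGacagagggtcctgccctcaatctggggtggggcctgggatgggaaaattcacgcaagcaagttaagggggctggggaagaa

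Of the 10 members, 7 had an upstream window in the RefSeq table (B2m, Tapbp, Psmb9, Tap1, Psmb8, H2-Aa and H2-Eb1). Over 250 upstream bases and both strands, GATTGG was present for 5 of the 7, against 14.6% of 32851 windows. GCAAC was present for 4 of the 7, against 29.9% of all windows, and TGACG for 4, against 17.8%. Psmb9 and Tap1 hold the same matches, in the interval they share, and with that interval counted once the counts were 4, 3 and 3 of 6 stretches. In H2-Aa the 2 TGACG matches overlap, 1 on each strand, as the palindrome TGACGTCA. GCAAC ahead of GATTGG on the same strand, with their first bases at most 50 apart, was found for 2 of the 7, H2-Aa and H2-Eb1, and in 0.603% of all windows. This pairing was chosen after the sequences were seen. The letters of an interferon-stimulated response element (GAAA, 2 bases of any kind and GAAA) occurred upstream of 1 member, B2m, 139 bases before its start, against 2.98% of all windows. The STAT-type letters TTCNNNGAA, which read the same on both strands, occurred upstream of Psmb8, 97 bases before its start, against 7.02%. A match is a description of letters, and no match says only that these letters are not in this window.

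The arrays report a MAS5 signal for each probe set, in arbitrary units on a linear scale. Signals are given below as deposited, and log2 ratios, Tmprss6-deficient over control, were taken after scaling both arrays to the same trimmed mean. A floor of 17.8, the median signal over both arrays, stands in for detection, and 22773 probe sets on the Tmprss6-deficient array and 22272 on the control array reached it. Since each genotype has 1 array, replicate error is unknown, nothing could be tested, and every difference is one between these 2 animals. Precision is limited by how few arrays there are. In place of a replicate error, the spread of log2 ratios among sets that read 1 gene is given as an SD, by the signal of the dimmer set. This SD was 0.44 below a signal of 64, 0.35 from 64 to 256, 0.26 from 256 to 1024 and 0.16 above. It leaves out variation between animals. The targeted gene Tmprss6 read 88.1 in the Tmprss6-deficient liver and 1868 in the control liver, and was 21.2-fold lower, in the direction of the labels.

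All 4 class II members and 5 of the 6 class I members were lower in the Tmprss6-deficient liver, and Tap2 was higher, although B2m stood above 0 after loess and Tapbp did with its probe sets averaged. On the brightest probe set of each gene, the class II log2 ratios lay between -0.56 and -0.42, with a median of -0.47 over 4 genes. The class I ratios ran from -0.60 to 1.01, with a median of -0.22 over 6 genes, or -0.25 without Tap2. The median was -0.0012 over all 12243 genes above the floor on at least 1 array. The class II median minus the class I median was -0.25, a difference with no test. With the measured probe sets of a gene averaged, H2-Aa had a ratio of -0.94 and H2-Ab1 one of -0.19, so the narrow range of class II ratios holds for the brightest sets alone. In all, 9 of the 10 members were below 0, against 50.1% of all genes measured. The members are not independent of each other, so this count is a description. At 1.5-fold or more, 1 member was higher (Tap2) and 1 was lower (Psmb8), against 8.90% and 9.09% of genes measured. These counts over 10 genes are close to that background, and with probe sets averaged the 1 lower member was H2-Aa in place of Psmb8.

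**Figure D1:**
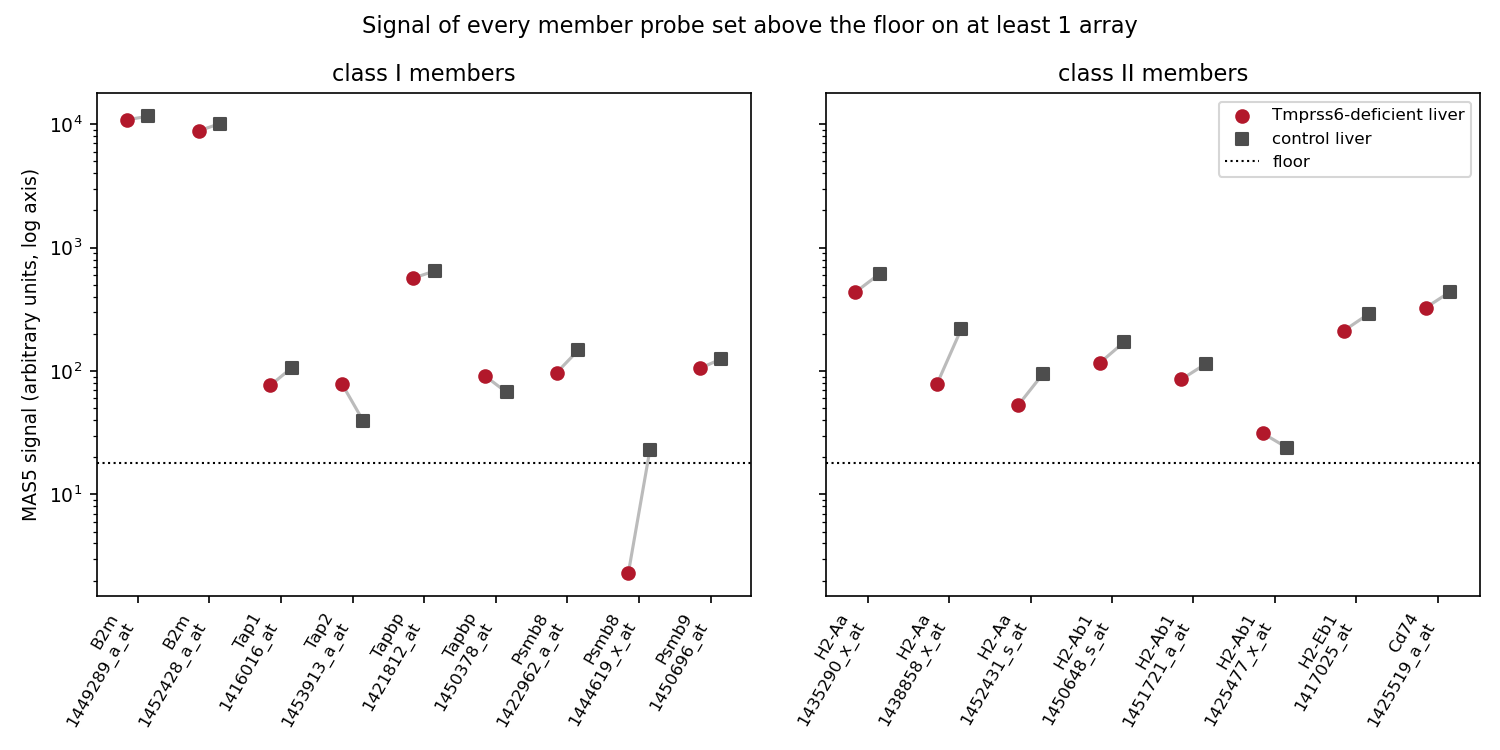
MAS5 signal (log axis) of the 17 member probe sets above the floor on at least 1 array, with the Tmprss6-deficient liver as red circles and the control liver as grey squares, 1 array each. The dotted line is the floor of 17.8, and the red circle lies lower for 14 of the 17 sets.

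Among the class II members, H2-Aa encodes the alpha chain of the I-A molecule. Its brightest probe set, 1435290_x_at, read 436 in the Tmprss6-deficient liver and 616.2 in the control liver, and was 1.41-fold lower. Set 1438858_x_at read 78.3 in the Tmprss6-deficient liver and 219.6 in the control liver, and was 2.80-fold lower, the widest difference of the 16 member sets above the floor on both arrays. Set 1452431_s_at read 53.0 and 94.5 in Tmprss6-deficient and control liver and was 1.78-fold lower. All 3 measured H2-Aa sets were thus lower in the Tmprss6-deficient liver, but unevenly, with log2 ratios of -0.50, -1.48 and -0.83 beside a probe set SD of 0.26 to 0.35. The remaining set, 1443783_x_at, read 15.5 in the Tmprss6-deficient liver and 15.6 in the control liver and was below the floor on both arrays. The H2-Aa sets carry the suffixes _x and _s, which Affymetrix gives to probes that can match other transcripts. So do sets 1450648_s_at and 1425477_x_at of H2-Ab1. Of the 9 class II sets 3 are plain, without these suffixes, against 10 of the 12 class I sets.

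H2-Ab1 encodes the beta chain that pairs with H2-Aa. Set 1450648_s_at read 116.3 in the Tmprss6-deficient liver and 171.9 in the control liver, a log2 ratio of -0.56. Set 1451721_a_at read 85.4 in the Tmprss6-deficient liver and 114.2 in the control liver, a log2 ratio of -0.42. The third set, 1425477_x_at, went the other way near the floor, at 31.3 in the Tmprss6-deficient liver and 23.9 in the control liver, a log2 ratio of 0.39 against a probe set SD of 0.44. The brighter sets therefore share a direction and the dimmest does not.

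H2-Eb1 encodes the beta chain of the I-E molecule and was read by 1 probe set, 1417025_at. It gave 212.9 in the Tmprss6-deficient liver and 290.0 in the control liver, and was 1.36-fold lower, with a log2 ratio of -0.44 against a probe set SD of 0.35. Cd74 encodes the invariant chain, which fills the class II groove until peptide is loaded. Its probe set, 1425519_a_at, read 325.2 in the Tmprss6-deficient liver and 437.5 in the control liver, and was 1.34-fold lower, with a log2 ratio of -0.42 against a probe set SD of 0.26. Over all 8 measured class II sets, 7 were lower and 1 was higher, with a median of -0.47, where 47.7% of all probe sets naming 1 gene were below 0. The 1.5-fold mark was passed by 2 of them, both of H2-Aa, against 8.83% of those probe sets.

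Among the class I members, B2m (beta-2 microglobulin) had the strongest signals. Set 1449289_a_at read 10892.9 in the Tmprss6-deficient liver and 11585.5 in the control liver, a log2 ratio of -0.085. Set 1452428_a_at read 8821 in the Tmprss6-deficient liver and 10124.6 in the control liver, a log2 ratio of -0.20. Both sets lay within 1.15-fold, and the first had a ratio of 0.013 after loess, on the other side of 0.

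Tap1 and Tap2 encode the chains that together form the TAP pump, and they differed in opposite directions. Tap1 read 76.3 in the Tmprss6-deficient liver and 106.1 in the control liver on set 1416016_at, and was 1.39-fold lower. Its 3 other sets were below the floor on both arrays, at 2.1 to 10.9 in the Tmprss6-deficient liver and 0.9 to 6.4 in the control liver. Tap2 read 79.0 in the Tmprss6-deficient liver and 39.3 in the control liver on its only set, 1453913_a_at, and was 2.02-fold higher. That log2 ratio of 1.01 is 2.28 times the probe set SD of 0.44 at this signal, and no second set of Tap2 is there to compare it with. With the floor at the 70th percentile it was 0.58 and just under 1.5-fold. Tapbp, which encodes tapasin, read 566.5 in the Tmprss6-deficient liver and 648.0 in the control liver on set 1421812_at, a log2 ratio of -0.19. Its second set, 1450378_at, read 91.1 in the Tmprss6-deficient liver and 67.2 in the control liver, a log2 ratio of 0.44. The Tapbp sets thus point in opposite directions, and their mean was 0.13.

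Psmb8 and Psmb9 encode catalytic subunits that replace Psmb5 and Psmb6 in the immunoproteasome. Psmb8 read 97.0 in the Tmprss6-deficient liver and 147.4 in the control liver on set 1422962_a_at, and was 1.52-fold lower, the lowest ratio of the class I members. With the floor added to every signal, this log2 ratio of -0.60 was -0.52, and averaged with the bound of the second set it was -0.48, each short of 1.5-fold. Its other set, 1444619_x_at, read 2.3 in the Tmprss6-deficient liver and 22.8 in the control liver, so it passed the floor in control liver alone, which gives at least 1.28-fold lower. Psmb9 read 105.1 in the Tmprss6-deficient liver and 125.5 in the control liver on 1450696_at, and was 1.19-fold lower, within the probe set SD of 0.35 on the log2 scale. Psmb9 and Tap1, whose starts flank the 225 bases shown above, had log2 ratios of -0.25 and -0.47. Over all 9 measured class I sets, 7 were lower and 2 were higher, with a median of -0.20.

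**Figure D2:**
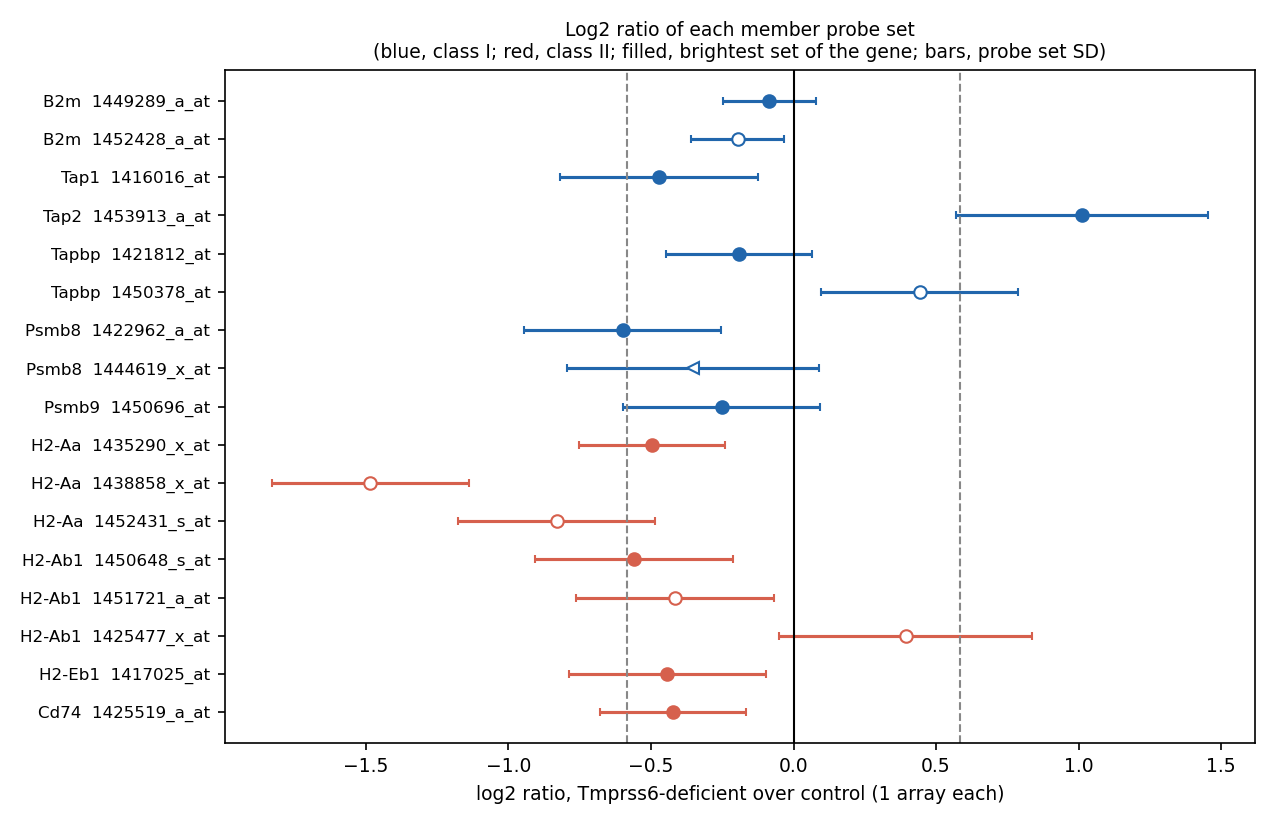
Log2 ratio, Tmprss6-deficient over control, of the 17 measured member probe sets, class I in blue and class II in red, with bars of 1 probe set SD and dashed lines at 1.5-fold. Filled points are each gene's brightest set, the triangle is a bound, and 7 of the 8 class II sets lie below 0, around a median of -0.47, while Tap2 stands at 1.01.

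The class I heavy chains, which bind peptide together with B2m, were close between the livers. Of 8 measured, 4 were above and 4 below 0, with a median of 0.016. This median was below 0 with the median as scale (-0.052) and with the floor at percentile 70 (-0.100). It was also below 0 with plain probe sets and without bounds (-0.085 each). It rose to 0.180 with the floor at percentile 30 and to 0.175 with probe sets averaged. H2-Q10, a secreted class I chain of liver, read 6679 in the Tmprss6-deficient liver and 7104 in the control liver. H2-K1 read 5913 in the Tmprss6-deficient liver and 6689 in the control liver, with 3 of its 4 sets higher but the brightest lower. H2-D1 read 5196 in the Tmprss6-deficient liver and 4801 in the control liver, with 5 sets higher and 3 lower. H2-M10.1 read 42.2 in the Tmprss6-deficient liver and 12.1, under the floor, in the control liver. At a difference of at least 2.37-fold it was the 1 heavy chain past 1.5-fold. Several of the listed chains, such as H2-K1 and H2-D1, are much alike in sequence, so their probe sets may read each other. Of 23 heavy chains listed, 12 had no probe set naming them alone, and 3 were below the floor.

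Other proteins that pair with B2m showed 5 of 5 genes within 1.5-fold and a median of -0.11. Among them Cd1d1, which presents lipids, read 3227 in the Tmprss6-deficient liver and 3225 in the control liver. The neonatal Fc receptor gene Fcgrt read 1308 in the Tmprss6-deficient liver and 1411 in the control liver. Hfe, the class I-like protein that acts in iron sensing, read 494.1 in the Tmprss6-deficient liver and 534.9 in the control liver, with its probe sets in disagreement. Helpers of class I loading also lay within 1.5-fold, 5 of 5, with a median of -0.098. Their chaperone genes Calr and Canx read 4958 and 2062 in the Tmprss6-deficient liver, against 4663 and 2212 in the control liver.

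Without Tmprss6, the liver gave lower signals for most of the other proteasome genes, in each case by less than 1.5-fold. The other inducible genes had 3 of 3 below 0, against 50.1% of all genes measured, and a median of -0.47, with 0 past 1.5-fold. Psme1, a subunit of the PA28 activator, read 544.5 in the Tmprss6-deficient liver and 754.2 in the control liver. Pomp, the proteasome assembly factor, read 1017.9 in the Tmprss6-deficient liver and 1413.5 in the control liver. Psmb10, the remaining immunoproteasome catalytic subunit, read 123.8 in the Tmprss6-deficient liver and 137.3 in the control liver, within the probe set SD. The constitutive core had 12 of 14 genes below 0, against the same 50.1%, and a median of -0.14, with 0 past 1.5-fold. Psmb6, which Psmb9 replaces, read 1095.7 in the Tmprss6-deficient liver and 1448 in the control liver, while Psmb5, which Psmb8 replaces, read 996.8 in the Tmprss6-deficient liver and 1137 in the control liver. Psmb7 and Psmb4 had log2 ratios of -0.0052 and 0.030.

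The remaining class II chains and the editors of class II peptides were dim. H2-DMa, a chain of the H2-DM editor, read 32.5 in the Tmprss6-deficient liver and 32.4 in the control liver. H2-DMb2, its partner chain, read 20.3 in the Tmprss6-deficient liver and 25.4 in the control liver. H2-Ea, the alpha chain of I-E, read 7.7 in the Tmprss6-deficient liver and 41.2 in the control liver on 1 of its 3 sets, which gives at least 2.31-fold lower, and its other sets were below the floor on both arrays. H2-Eb2, H2-Oa and H2-Ob were below the floor on both arrays. In C57BL/6 mice H2-Ea is known not to be transcribed, and the labels do not state which MHC haplotypes these animals carried. Whether the H2-Ea probe set that passed the floor read H2-Ea RNA was not tested.

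Genes that process class II cargo had 7 of 9 below 0 and a median of -0.19, and 1 of them passed 1.5-fold downward. Over all genes measured, 50.1% were below 0 and 9.09% passed 1.5-fold downward. Among the class II processing genes, 1 thus passed that mark. That gene was Lgmn, the lysosomal protease legumain, at 181.0 in the Tmprss6-deficient liver and 303.5 in the control liver, 1.67-fold lower. Ifi30, a thiol reductase of the class II pathway, read 142.5 in the Tmprss6-deficient liver and 204.5 in the control liver, and was 1.43-fold lower. Ctss, the cathepsin that trims the invariant chain, read 446.7 in the Tmprss6-deficient liver and 540.3 in the control liver. The abundant cathepsin genes Ctsl and Ctsb, which hepatocytes express too, had log2 ratios of 0.19 and -0.19.

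Transcription regulators of MHC genes were centred near 0, with 6 of 12 above and 6 below it and a median of -0.014. Ciita, the master activator of class II genes, read 7.0 in the Tmprss6-deficient liver and 17.6 in the control liver, below the floor on both arrays. Nlrc5, the activator of class I genes, read 73.0 in the Tmprss6-deficient liver and 65.9 in the control liver. Rfx5, a subunit of the X-box complex, read 83.8 in the Tmprss6-deficient liver and 115.5 in the control liver, a log2 ratio of -0.46 against a probe set SD of 0.35. Nfyc, a subunit of NF-Y, read 221.5 in the Tmprss6-deficient liver and 218.7 in the control liver. Irf1 and Irf2, interferon regulatory factors, were 1.31-fold and 1.81-fold higher, and Irf2, at 320.1 in the Tmprss6-deficient liver and 176.9 in the control liver, was the only regulator past 1.5-fold.

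Several targets of interferon gamma, the cytokine that induces both MHC classes, were lower in the liver without Tmprss6. The list of its signalling genes and targets was written with earlier results of these data known. It held 15 measured genes, of which 11 were below 0 and 4 above, with a median of -0.58. The 1.5-fold mark was passed downward by 7 and upward by 0, against 9.09% and 8.90% of genes measured. Irgm2, an immunity-related GTPase, read 60.7 in the Tmprss6-deficient liver and 257.4 in the control liver, and was 4.23-fold lower. Ifi47, of the same family, read 62.3 in the Tmprss6-deficient liver and 205.8 in the control liver, and was 3.29-fold lower. Igtp and Irgm1 were 2.25-fold and 1.79-fold lower, Gbp3 was at least 2.54-fold lower, and the abundant Iigp1 read 2681 in the Tmprss6-deficient liver and 4026.5 in the control liver. Gbp6 and Cxcl9, also lower past 1.5-fold, were dim, at 26.7 and 28.9 in the Tmprss6-deficient liver and 40.9 and 45.2 in the control liver. The probe sets of Cxcl9 pointed in opposite directions, as did those of Ifngr2, Jak2 and Gbp7, given next by their brightest sets. The receptor genes Ifngr1 and Ifngr2 had log2 ratios of -0.13 and -0.12, and Ifng itself was below the floor on both arrays. The 4 genes above 0 were the kinase genes Jak1, with a log2 ratio of 0.13, and Jak2, with 0.47, the GTPase gene Gbp7, with 0.21, and the chemokine gene Cxcl10, at least 1.49-fold higher at a dim signal. Irf1, 1.31-fold higher, is counted with the regulators and not on this list.

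**Figure D3:**
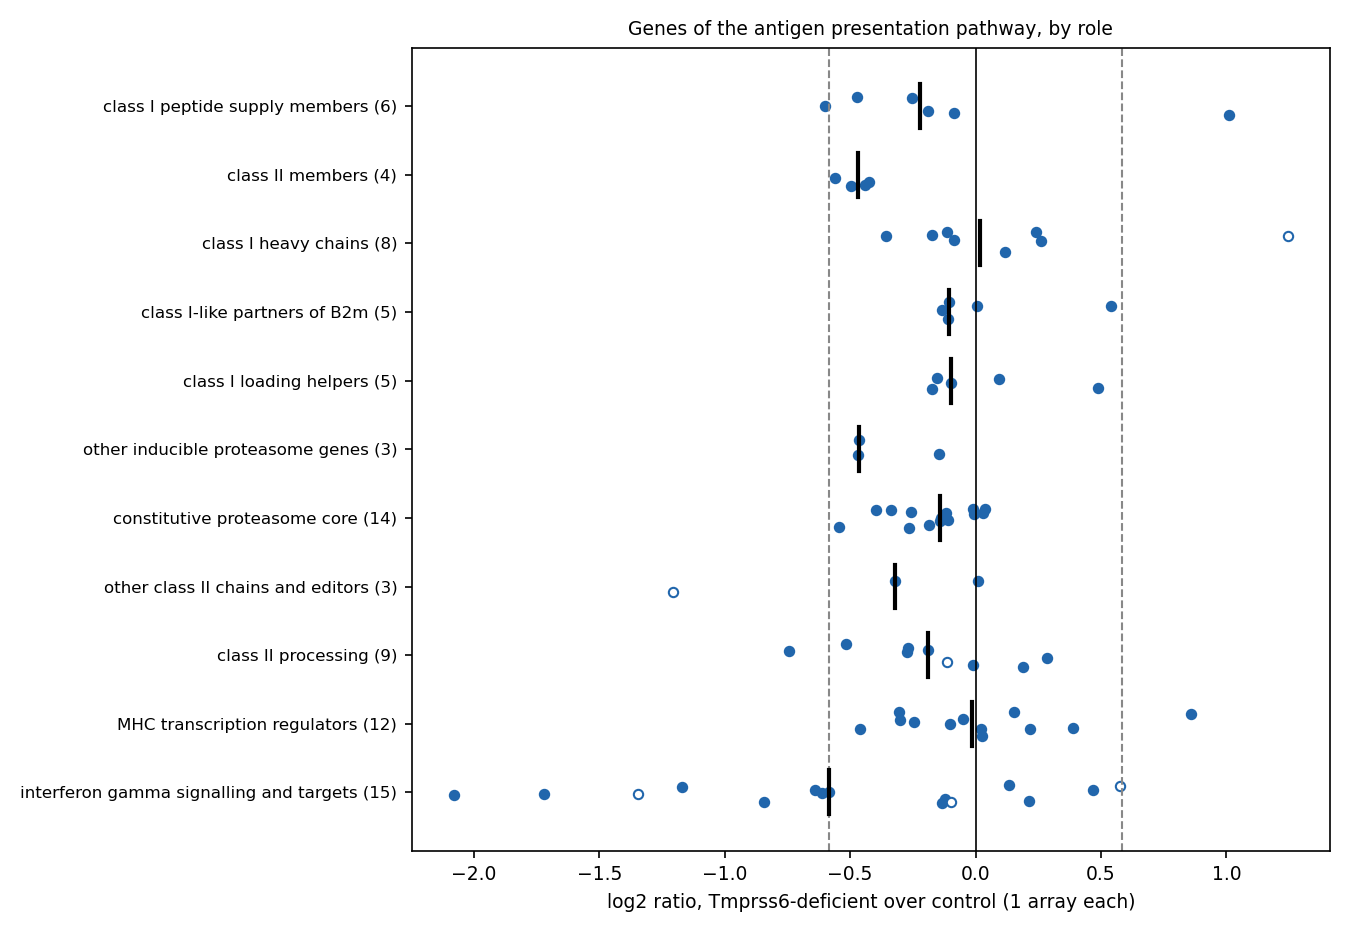
Log2 ratio, Tmprss6-deficient over control, of each measured gene (number in brackets) of the antigen presentation pathway by role, with open points for bounds, a black bar at the median and dashed lines at 1.5-fold. The class II members, the other inducible proteasome genes and the interferon gamma list have medians of -0.47, -0.47 and -0.58, and the regulators are centred at -0.014.

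Of the cells that carry class II, macrophages had markers that were mostly lower in the Tmprss6-deficient liver. Macrophage and Kupffer cell markers were below 0 for 11 of 14 genes, against 50.1% of all genes measured. Their median was -0.40, beside -0.47 for the class II members. Past 1.5-fold, 4 were lower and 1 was higher, against 9.09% and 8.90% of genes measured. Their summed signal was 3609 in the Tmprss6-deficient liver and 4868 in the control liver. Clec4f, a lectin of Kupffer cells, read 360.9 in the Tmprss6-deficient liver and 633.8 in the control liver. C1qb, a complement chain made by macrophages, read 210.6 in the Tmprss6-deficient liver and 397.6 in the control liver. On the same list C1qc, Adgre1, Fcgr1 and Lyz2 lay near 0, with log2 ratios of -0.071, 0.043, 0.037 and -0.097. Csf1r, the macrophage growth factor receptor gene, read 882.7 in the Tmprss6-deficient liver and 1174 in the control liver, while the scavenger receptor gene Marco was higher, at 136.0 in the Tmprss6-deficient liver and 77.3 in the control liver.

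Pan leukocyte markers were below 0 for 7 of 8 genes, against 50.1% of all genes measured. Their median was -0.52, with summed signals of 1144 in the Tmprss6-deficient liver and 1388 in the control liver. Cd52 and Ptprc (CD45) were 2.10-fold and 1.55-fold lower, Coro1a was 1.86-fold lower, and Lcp1 read 593.1 in the Tmprss6-deficient liver and 617.5 in the control liver. In whole liver RNA, fewer cells of a type and less RNA per cell cannot be told apart, and the part of these markers in the class II values was not tested.

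Dendritic and B cells, which carry much class II, were barely read by their markers. On both arrays, 7 of the 11 dendritic cell genes with a probe set were under the floor, Itgax, Flt3 and Xcr1 among them. The 4 measured ones had a median of 0.45 and a summed signal of 1427 in the Tmprss6-deficient liver and 1625.5 in the control liver. That sum is mostly Cst3, which many cells express and which read 1332 in the Tmprss6-deficient liver and 1563 in the control liver. Zbtb46 was at least 1.92-fold higher at a dim signal. B cell markers had a median of 0.076 over 5 measured genes, with summed signals of 151 in the Tmprss6-deficient liver and 142.4 in the control liver, and Ighm read 75.4 in the Tmprss6-deficient liver and 71.7 in the control liver. Hepatocyte markers had 8 of 8 genes within 1.5-fold and a median of -0.098, with the apolipoprotein gene Apoa1 at 32902 in the Tmprss6-deficient liver and 35972 in the control liver.

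**Figure D4:**
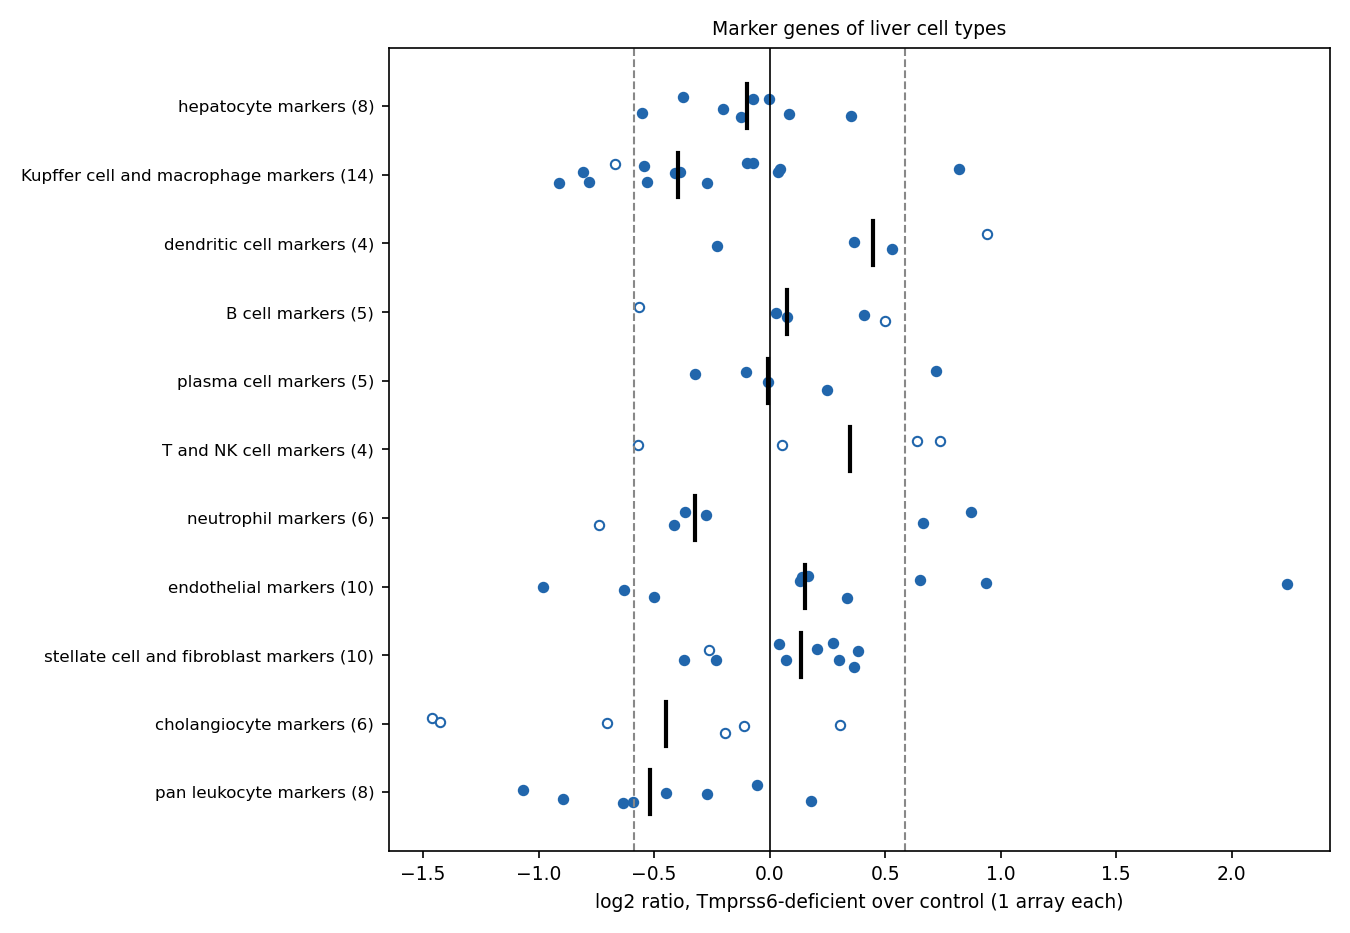
Log2 ratio, Tmprss6-deficient over control, of each measured marker gene (number in brackets) by cell type, with open points for bounds, a black bar at the median and dashed lines at 1.5-fold. The macrophage and pan leukocyte medians are -0.40 and -0.52, and the hepatocyte median is -0.098.

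Every member other than B2m and Cd74 lies in 1 stretch of the mouse MHC region, from Tapbp to H2-Eb1. The other protein-coding genes of that stretch, which are on none of the lists, gave 11 measured genes and a median of 0.11. The 1.5-fold mark was passed upward by 2 and downward by 0, against 8.90% and 9.09% of all genes measured. Ring1, a Polycomb protein gene among them, read 154.5 in the Tmprss6-deficient liver and 85.5 in the control liver. The animals are of mixed 129Sv/C57BL6 background, and whether they differed by strain in this region was not tested. With 1 animal each, any such difference could not be told apart from the Tmprss6 genotype.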

How the data were processed

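Liver RNA of 1 Tmprss6-deficient and 1 control mouse was biotin-labelled and hybridised to Affymetrix mouse arrays, per the labels. The authors deposited a linear intensity for each probe set, which the submitters' processing notes credit to MAS5 with no version or settings. Detection calls were not used here.

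Of 45101 probe sets (64 controls), 34958 had 1 gene symbol in the platform annotation, 932 had several and 9211 were not listed. RefSeq's table (GRCm38.p6) held 34754 of the identifiers and changed 0 symbols.

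Arrays were scaled to a common trimmed mean (2% off each end; before scaling 99.4 in Tmprss6-deficient and 99.6 in control liver). Signals below the floor of 17.8 were raised to it before log2. The brightest probe set by mean log2 signal stood for a gene. "Measured" means that 1 array or both reached the floor, and a gene that reached it on 1 got a bound ("at least"). The ratio procedure was tested on simulated data.

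The members, lists, floor and alternatives were chosen with earlier results of these data known. Named are all members with every probe set, from each pathway list genes past 1.5-fold (up to 5 by size) and the 2 brightest, and from marker lists up to 3 past 1.5-fold and the brightest. Chosen after their values were seen were H2-D1, Hfe, Psmb5, Psmb6, Psmb10, H2-DMa, H2-DMb2, H2-Eb2, H2-Oa, H2-Ob, Ifi30, Ctss, Ciita, Nlrc5, Rfx5, Irf1, Ifngr1, Ifngr2, Ifng, Jak2, Gbp6, Gbp7, Cxcl9, Cxcl10, C1qc, Adgre1, Fcgr1, Lyz2, Itgax, Flt3, Xcr1 and the neighbouring genes. Python 3.11.15, pandas 2.3.3 and statsmodels 0.14.6 were used.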

Additional observations from a re-analysis of the deposited data

How the results depend on the processing

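No paired analysis was possible because each genotype has 1 array. Scaling was also done by the median, by quantiles, by loess and not at all. The floor was moved to percentile 30 or 70 or added to every signal, and genes were also read by averaging their measured probe sets, by plain sets alone, or without bounds. Under all of these the class II median stayed between -0.54 and -0.42, the class I median between -0.29 and -0.20, and the class II minus class I difference between -0.25 and -0.20. The ranges of the class medians include leaving out H2-Aa or Tap2, which was chosen after seeing the data. The count of members lower by 1.5-fold or more was 2 with loess and with scaling to the same median (H2-Ab1 besides Psmb8). It was 0 with the floor added to every signal. The count higher was 0 with the floor raised to percentile 70, where the Tap2 ratio is a bound. With probe sets averaged the count lower was again 1, but H2-Aa in place of Psmb8, which had a ratio of -0.48. Under that setting the class I loading helpers had a median of 0.17, H2-Aa a ratio of -0.94, H2-Ab1 a ratio of -0.19 and Tapbp a ratio of 0.13, since their sets differ. With plain sets only, H2-Aa has no value. Signals near or under the floor limit the class II editors and the dendritic, T and NK, and cholangiocyte markers.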

Other observations

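Marker lists of other cell types gave the following log2 ratios, which belong to no comparison above. Over all genes measured, 8.90% passed 1.5-fold upward and 9.09% downward. The endothelial median was 0.15 over 10 genes, of which 3 passed 1.5-fold upward and 2 downward. Lyve1, a hyaluronan receptor of sinusoidal endothelium, read 152.1 in the Tmprss6-deficient liver and 32.3 in the control liver, and Clec4g, a lectin of the same cells, read 261.1 in the Tmprss6-deficient liver and 517.3 in the control liver. Egfl7 was 1.92-fold higher on its brightest set, but of its 4 measured sets 2 were higher and 2 lower. The stellate cell and fibroblast median was 0.14, and 10 of 10 genes were within 1.5-fold, with Dcn the brightest at 1586.8 in the Tmprss6-deficient liver and 1221.4 in the control liver. The neutrophil median was -0.32 over 6 dim genes, of which 2 passed 1.5-fold upward (Csf3r and Ngp) and 1 downward (Elane, a bound), while S100a8, the brightest, had 45.1 in the Tmprss6-deficient liver and 60.2 in the control liver. The plasma cell median was -0.0078 over 5 genes, of which 1 passed 1.5-fold upward (Mzb1), and Xbp1, the brightest, was within 1.5-fold. Of 12 T and NK cell markers on the array, 4 reached the floor, each on 1 array only, with a median of 0.35 at those bounds, and 2 passed 1.5-fold upward (Cd8a and Prf1). Of 7 cholangiocyte markers, 6 reached it, each on 1 array only, with a median of -0.45 at those bounds, and 3 passed 1.5-fold downward (Krt19, Prom1 and Cldn7).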
